A study of Mus musculus with 6 samples.

Results

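The genes described here encode the nuclear part of mitochondrial complex I (NADH:ubiquinone oxidoreductase) and its assembly factors, in single cells of mouse spleen. They were taken by symbol, as every name in the 6 deposited tables beginning with Ndufa, Ndufb, Ndufc, Ndufs, Ndufv, Ndufab or Ndufaf. That gave 47 of 20279 gene symbols, of which 39 are subunit symbols and 8 are assembly factors (Ndufaf1 to Ndufaf8). One of the 39, Ndufb1-ps, is annotated in GENCODE as a non-coding transcript at a bidirectional promoter and is named apart where it matters. Another, Ndufa4l2, had 1 count in all kept cells and was not tested. The remaining 46 symbols passed the low-count filter in the sums over all cells. Values are counts per gene and cell barcode from Nanopore long-read libraries made from unfragmented cDNA.

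The 6 libraries fall into 3 groups of 2. All are labelled as spleen of 10-week-old female mice, with no genotype, transgene or treatment given. The 3′ libraries used the 10x Genomics 3′ kit, and the standard 5′ libraries used the 10x 5′ kit. The modified 5′ libraries used the 5′ kit with extra dNTP in the reverse transcription and the cDNA amplification. Their reverse transcription extension ran for 2 hours in place of 45 minutes, and their amplification extension for 3 minutes in place of 1 minute. The labels of the replicate 2 libraries carry an extraction text for pancreatic islets with insulin depletion, and the series' design text, which names the C57BL/6 strain, also describes islets and a short-read 3′ library. In the kept cells, 8 B cell markers summed to 15599 to 42038 CPM (a count as a share of the library total, scaled to 1000000) and 8 T cell markers to 1348 to 1937 CPM, while 5 erythroid markers exceeded both lists in the replicate 1 libraries, at 39334 to 68762 CPM. Pancreas markers, 6 in all, summed to 2.50 to 13.7 CPM in 5 libraries and to 39 CPM in the modified 5′ replicate 2 library. The islet hormone genes Ins1, Ins2, Gcg and Sst were at 0 in those 5 and at 7.14, 22.8, 2.85 and 0.952 CPM in that one. The libraries are called spleen as labelled. Whether libraries of one replicate number came from one mouse was not stated, so p-values measure the spread between these libraries, which may be technical.

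Each library held 723341 to 2627253 counts, and 861 to 4045 cells passed the limits of 200 detected genes or more and 20% mitochondrial counts or less. The standard 5′ replicate 1 library stood apart: 34.0% of its barcodes were kept, against 78.3% to 89.9% elsewhere, and its tested complex I genes had 3 to 120 counts each. Haemoglobin made up 3.92% to 6.84% of kept counts in the replicate 1 libraries and at most 0.128% in the replicate 2 libraries. No pair of libraries shared more than 14 kept barcodes. B-gated cells had at least 2 counts over 4 B cell genes together and 0 of the T cell genes. T-gated cells had at least 2 counts of Cd3d, Cd3e, Cd3g, Trac, Trbc1 and Trbc2 and 0 of the B cell genes. The gates held 355 to 2044 B-gated and 288 to 1153 T-gated cells per library. Marker lists not used by the gates followed them: 8 further T cell genes summed to 279 to 333 CPM in B-gated and 3752 to 4956 CPM in T-gated cells, and 8 further B cell genes to 27803 to 68115 and 489 to 867 CPM.

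Complex I is the first and largest enzyme of the respiratory chain, in which it passes electrons from NADH to ubiquinone and pumps protons across the inner mitochondrial membrane. Its catalytic core is formed by subunits encoded in the nucleus (such as Ndufv1, Ndufs1 and Ndufs7), which carry the flavin and the iron-sulfur clusters, and by membrane subunits encoded in mitochondrial DNA (the mt-Nd genes). The many accessory subunits surround that core, and the assembly factors help to build the complex without staying in it. Lymphocytes rely on this enzyme for respiration at rest and for the growth that follows activation.

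A short sequence that the choice by symbol did not use was found in the promoters of some of these genes. RefSeq promoters (build GRCm38.p6, 250 bases before and 50 after each start site) were found for 40 of the 47 symbols. The 8 letters AAGATGGC, the core of sites bound by the transcription factor YY1, were searched on both strands. They stood in the promoters of 8 of these 40 genes (20%), against 5.55% of the 8897 tested genes with a promoter. In all 8 the letters lay on the gene's own strand, 10 to 38 bases after the start site. Among all tested promoters with these letters, 45.3% had them on the gene's own strand anywhere in the 50 bases after the start site. That is a wider range than 10 to 38 bases, in which the tested promoters were not counted. The 30 bases around each site are shown 5′ to 3′ on the gene's strand, because the place of the letters is what these 8 have in common, with the 8 letters in capitals.
Ndufa3, chr7:3617376-3617405, plus strand: ccttgtcgccgccaagaacAAGATGGCcgg
Ndufa9, chr6:126849105-126849134, minus strand: ccgtgaggcattgtgggagAAGATGGCggc
Ndufaf8, chr11:120098925-120098954, plus strand: tccggaagaggcagggcccAAGATGGCggc
Ndufb8, chr19:44555394-44555423, minus strand: gtgaaccgcggagaaggtgAAGATGGCtgc
Ndufc1, chr3:51408923-51408952, minus strand: gaggcggagcctgcggaacAAGATGGCgcc
Ndufs4, chr13:114388049-114388078, minus strand: cctggcgtttgcctacaggAAGATGGCggc
Ndufs6, chr13:73328439-73328468, minus strand: ggggtcaagggtcaccggcAAGATGGCggc
Ndufs7, chr10:80249454-80249483, plus strand: ttgtctgaaggccgaggccAAGATGGCggc
Of 3 other motifs searched on both strands, the NRF1 letters GCGCATGC stood in the promoters of 12.5% of the 40 genes and 6.29% of tested genes. The ETS letters CCGGAAG stood in 15.0% and 21.6%, and the TATA letters TATAAA in 10.0% and 9.36%. A match describes the letters in this window and not the binding of a factor. The genes whose windows are shown did not form one group in the results: Ndufa3 and Ndufc1 were among the largest rises in the modified 5′ libraries, and Ndufs4 was higher in T-gated cells, while Ndufa9 passed no test in all cells.

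The first question was how much of each library the whole set took up under the 3 protocols. In kept cells the 39 subunit symbols together made up 0.495% and 0.491% of all counts in the 3′ libraries. The share was 0.564% and 0.672% in the standard 5′ libraries, and 0.876% and 0.732% in the modified 5′ libraries. Every 5′ library was thus above both 3′ libraries, and both modified libraries were above both standard ones. Over all barcodes, without the cell filter, the shares were 0.455% and 0.487%, then 0.486% and 0.667%, then 0.696% and 0.728%, so the standard 5′ replicate 1 library no longer stood above both 3′ libraries. The exact binomial 95% interval was widest in the standard 5′ replicate 1 library, 0.540% to 0.588%, and such intervals cover counting error at most. The 8 assembly factors made up 0.0204% and 0.0233% of counts in the 3′ libraries, 0.0197% and 0.0270% in the standard 5′ libraries and 0.0326% and 0.0285% in the modified ones. Here the standard 5′ values enclosed the 3′ values, and both modified libraries were above all others. Over all barcodes the modified 5′ replicate 1 library, at 0.0256%, was below the standard 5′ replicate 2 library, at 0.0267%. Assembly factors were 3.37% to 4.52% of complex I counts over the 6 libraries, with the 2 highest values, 3.96% and 4.52%, in the 3′ libraries. With 2 libraries a group, an exact permutation test of such a share cannot go below p = 0.33, so none is given.

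**Figure D1:**
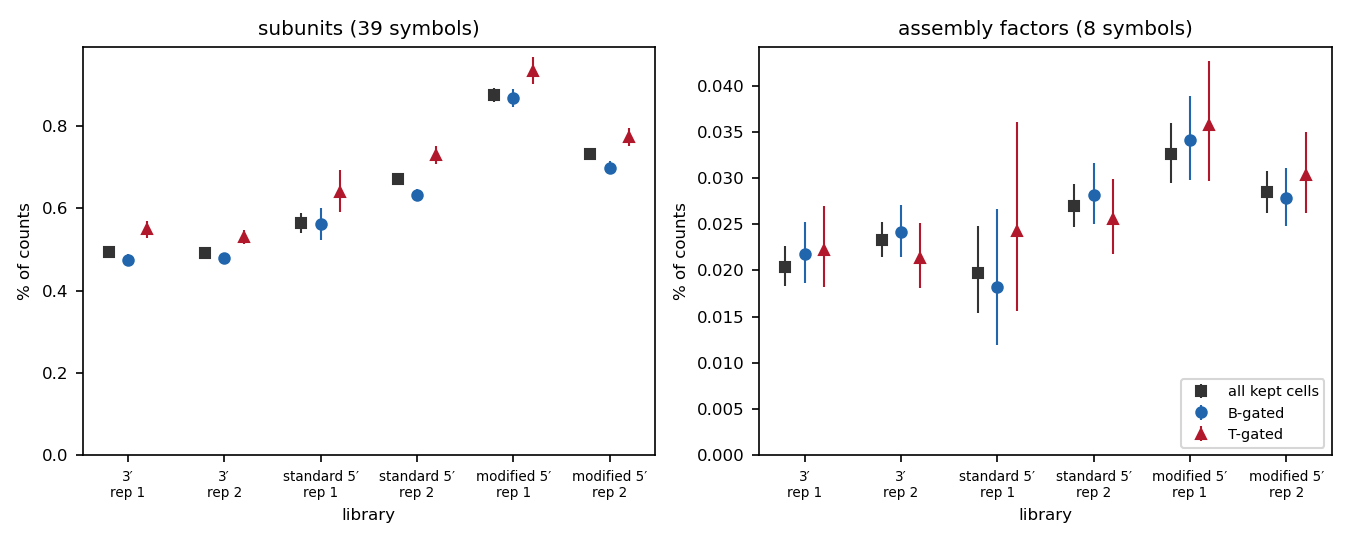
Share of counts, in percent, taken by the 39 subunit symbols (left) and the 8 assembly factors (right) in each library, for all kept, B-gated and T-gated cells; bars are exact binomial 95% intervals. Subunits in kept cells rose from 0.495% and 0.491% (3′) to 0.876% and 0.732% (modified 5′), with T-gated above B-gated cells in each library.

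A subunit count was found in 92.3% and 88.7% of kept cells in the 3′ libraries, 86.9% and 94.6% in the standard 5′ libraries and 96.6% and 95.8% in the modified 5′ libraries. Thinned to 300 counts per cell, which left out 45 to 351 cells per library, these shares became 76.2% and 75.1%, then 82.3% and 85.4%, then 91.3% and 87.2%. In the standard 5′ replicate 1 library 313 of 861 kept cells were left out, so its thinned share covers its deeper cells only. At equal depth the lowest shares were those of the 3′ and the highest those of the modified 5′ libraries. Assembly factor counts were found in 6.04% and 6.28%, 6.39% and 7.51%, and 9.04% and 8.35% of thinned cells.

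Gene by gene, the standard 5′ libraries were compared with the 3′ libraries in all kept cells. Of the 46 tested genes 18 were higher and 0 were lower at an edgeR adjusted p under 0.05, while 12.5% of all 11546 tested genes were higher and 10.8% lower. No member was lower at an unadjusted p under 0.05 either, and DESeq2 called 12 higher and 0 lower. The shares of all genes at that unadjusted threshold in comparisons with 3′, and with DESeq2 in any comparison, are not given here. Such counts therefore cannot be set beside the shares of all genes in the edgeR fit. The 18 were 17 of 38 subunits, 5 of the 7 core subunits among them, and 1 of 8 assembly factors. The median log2 fold change was 0.69 over the 46 genes and -0.01 over all genes tested. Among called genes at a mean of 20 CPM or more, which leaves out Ndufaf5, the largest change was that of Ndufa10, followed by Ndufb6, Ndufa3, Ndufv1, Ndufs7 and Ndufa6. From here CPM values are scaled by edgeR's trimmed mean of M-values (TMM), and a difference is a log2 fold change ± SE.

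The core subunits that carry the redox centres come first. Ndufv1, which binds the flavin at the NADH site, was at 46.2 and 52.3 CPM in the 3′ libraries, 101 and 107 in the standard 5′ libraries and 74.7 and 103 in the modified 5′ libraries. It differed by 1.08 ± 0.23 (edgeR adjusted p = 0.0106) between standard 5′ and 3′ and by 0.86 ± 0.22 (edgeR adjusted p = 0.0257) between modified 5′ and 3′. All 4 values of the 5′ libraries were above both 3′ values. Ndufv2, its iron-sulfur partner in the NADH-oxidising module, was at 106 and 139 CPM in the 3′ libraries, 261 and 219.7 in the standard 5′ libraries and 176 and 194 in the modified 5′ libraries. Its change passed the test in the standard comparison, at 0.96 ± 0.22 (edgeR adjusted p = 0.016), and was 0.60 ± 0.22 in the modified one, where it did not pass. Ndufs7, which holds the last iron-sulfur cluster before ubiquinone, was at 129.8 and 166 CPM in the 3′ libraries, 283 and 305 in the standard 5′ libraries and 277 and 269.6 in the modified 5′ libraries. It rose by 0.99 ± 0.21 (edgeR adjusted p = 0.0114) in the standard and by 0.88 ± 0.21 (edgeR adjusted p = 0.0201) in the modified libraries.

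Ndufs3, of the module that binds ubiquinone, passed in the standard 5′ libraries at log2 0.85 ± 0.25. It was at 78.6 and 126 CPM in the 3′ libraries, 178 and 190.3 in the standard 5′ libraries and 155 and 173 in the modified 5′ libraries. All 5′ values were above both 3′ values, and the modified comparison gave 0.67, which did not pass. In the GENCODE transcripts 49.3% of the 31-base words of Ndufs3 recur in other genes, mainly the processed copy Gm12251, which the tables do not list, so its counts may hold reads from copies. Ndufs8, which carries a pair of clusters, was at 98.9 and 135 CPM in the 3′ libraries, 151 and 186 in the standard 5′ libraries and 182 and 185 in the modified 5′ libraries, and its differences of 0.54 and 0.65 did not pass. Ndufs1, the largest core subunit of the NADH-oxidising arm, was the only one of the 46 genes with a negative value in both 5′ comparisons. It was at 53.2 and 49.6 CPM in the 3′ libraries, 52.2 and 36.1 in the standard 5′ libraries and 51.6 and 44.7 in the modified 5′ libraries. The groups overlapped, and its differences of -0.32 ± 0.24 and -0.10 ± 0.22 did not pass.

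**Figure D2:**
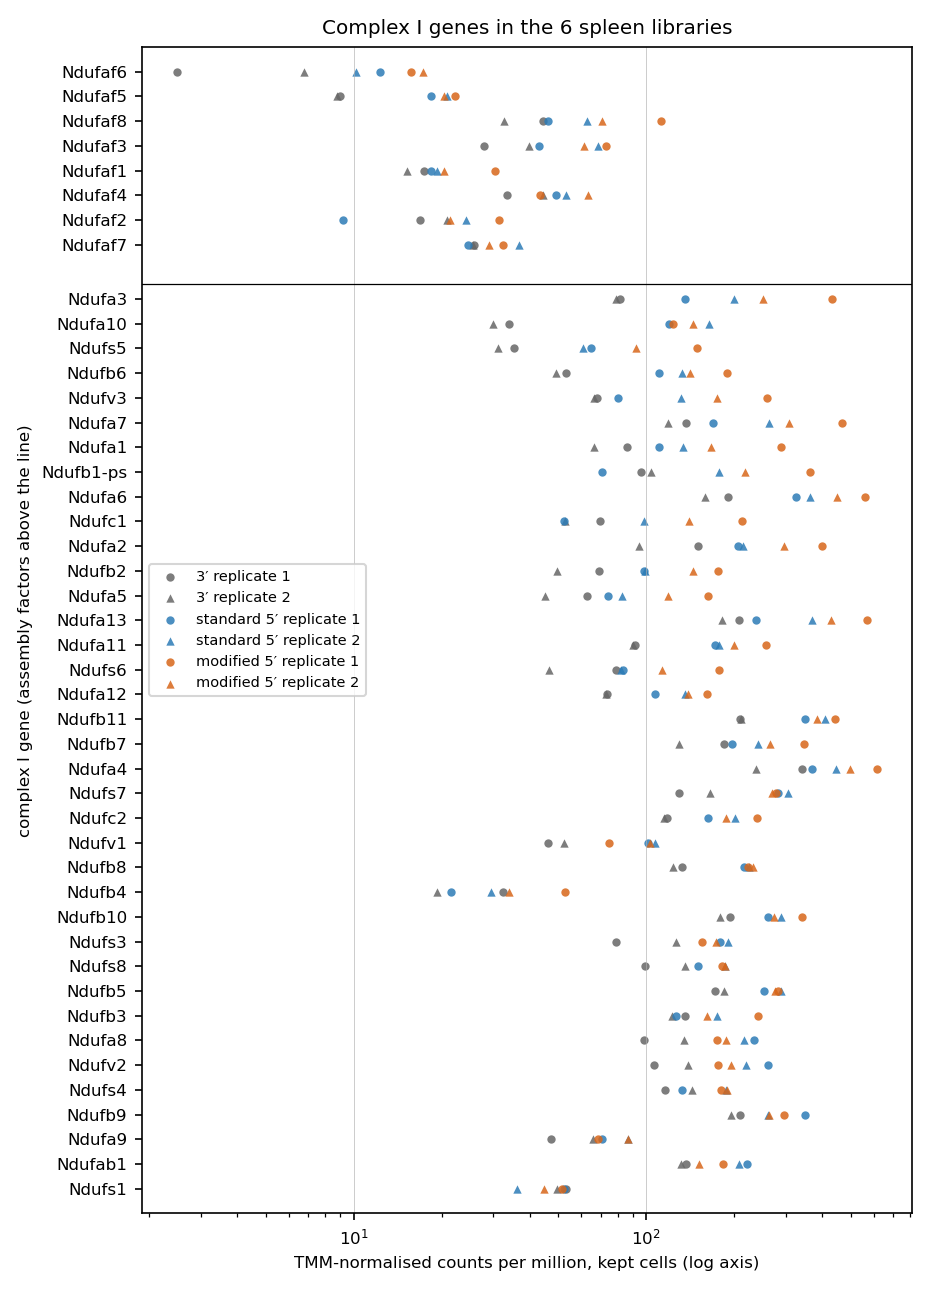
TMM-normalised CPM (log axis) of 45 of the tested genes in the 6 libraries; circles are replicate 1, triangles replicate 2, and assembly factors stand above the line. The rows of Ndufa3 and Ndufa6 run from grey (3′) through blue (standard 5′) to orange (modified 5′). In the row of Ndufa10 blue and orange overlap, and Ndufs1 stays within 36.1 to 53.2 CPM in all 6.

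Among accessory subunits, Ndufa10, a nucleoside kinase-like protein of the ubiquinone arm, changed most in the standard 5′ libraries. It was at 33.8 and 30.0 CPM in the 3′ libraries, 119.8 and 164 in the standard 5′ libraries and 124 and 145 in the modified 5′ libraries. Its difference was 2.19 ± 0.24 (edgeR adjusted p = 0.00125) in the standard and 2.08 ± 0.23 (edgeR adjusted p = 0.00184) in the modified libraries, and it was the only member to pass in the standard comparison with each library left out in turn. Standard and modified 5′ libraries did not separate for this gene. Ndufb6, of the membrane arm, was at 53.2 and 49.2 CPM in the 3′ libraries, 111 and 132 in the standard 5′ libraries and 189 and 141 in the modified 5′ libraries. It differed by 1.27 ± 0.23 and 1.68 ± 0.22, and by the annotation 39% of its exonic bases lie opposite those of Smim27. Ndufa6, a small accessory subunit at the ubiquinone module, was at 190.4 and 159 CPM in the 3′ libraries, 326 and 364 in the standard 5′ libraries and 559.8 and 447 in the modified 5′ libraries. It rose by 0.99 ± 0.22 and 1.53 ± 0.21, with the 3 groups in separate ranges.

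Comparing modified 5′ with 3′ libraries, 30 of 46 genes were higher and 0 were lower, against 10.2% of all tested genes higher and 8.19% lower. None was lower at an unadjusted p under 0.05, and DESeq2 called 26 higher and 0 lower. The 30 were 26 of 38 subunits, Ndufb1-ps among them, and 4 of 8 assembly factors. Only 2 of the 7 core subunits passed, Ndufv1 and Ndufs7, while 11 of 13 Ndufa and 8 of 11 Ndufb genes did. The median log2 fold change was 0.95 over the 46 genes and -0.02 over all genes tested. Both comparisons share the 3′ libraries, so they are not independent. The 6 largest changes among genes at 20 CPM or more were those of Ndufa3, Ndufa10, Ndufs5, Ndufb6, Ndufv3 and Ndufa7.

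Ndufa3, a small membrane-anchored accessory subunit, was at 81.0 and 78.9 CPM in the 3′ libraries, 135 and 199 in the standard 5′ libraries and 433 and 249.8 in the modified 5′ libraries. Its difference from 3′ was 2.09 ± 0.30 (edgeR adjusted p = 0.00341) in the modified and 1.09 ± 0.30 (edgeR adjusted p = 0.0281) in the standard libraries. Here the groups fell in 3 separate ranges, with the modified replicate 1 library far above the rest. Ndufs5, an accessory subunit of the intermembrane-space side, was at 35.3 and 31 CPM in the 3′ libraries, 64.5 and 61.0 in the standard 5′ libraries and 149 and 92.4 in the modified 5′ libraries, a difference of 1.85 ± 0.25 for modified against 3′. The near-copy BC002163, which the tables do not list, holds 36.0% of its 31-base words. Ndufv3, a small accessory subunit beside the flavin site, was at 67.6 and 66.4 CPM in the 3′ libraries, 79.9 and 132 in the standard 5′ libraries and 258 and 174 in the modified 5′ libraries. It rose by 1.68 ± 0.28 in the modified libraries and had 0.72 ± 0.28, not past the threshold, in the standard ones. Ndufa7, an accessory subunit of the peripheral arm, was at 137 and 118 CPM in the 3′ libraries, 169 and 264 in the standard 5′ libraries and 467 and 308 in the modified 5′ libraries, with 1.60 ± 0.28 for modified against 3′. In all 3 genes the modified libraries were above the standard ones and the standard ones above the 3′ ones.

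A pair of subunits has known roles outside the enzyme. Ndufab1 is the mitochondrial acyl carrier protein, which also serves fatty acid and iron-sulfur cluster synthesis. It was at 136 and 131 CPM in the 3′ libraries, 221 and 208 in the standard 5′ libraries and 183 and 152 in the modified 5′ libraries. It rose in the standard libraries, by 0.68 ± 0.20 (edgeR adjusted p = 0.0392), and its 0.32 ± 0.20 in the modified libraries did not pass. Ndufa4, now usually counted as a subunit of cytochrome c oxidase (complex IV), was at 341 and 237 CPM in the 3′ libraries, 369 and 444 in the standard 5′ libraries and 615 and 498 in the modified 5′ libraries. It rose in the modified libraries, by 0.95 ± 0.24 (edgeR adjusted p = 0.0253), and its 0.50 ± 0.24 in the standard libraries did not pass.

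**Figure D3:**
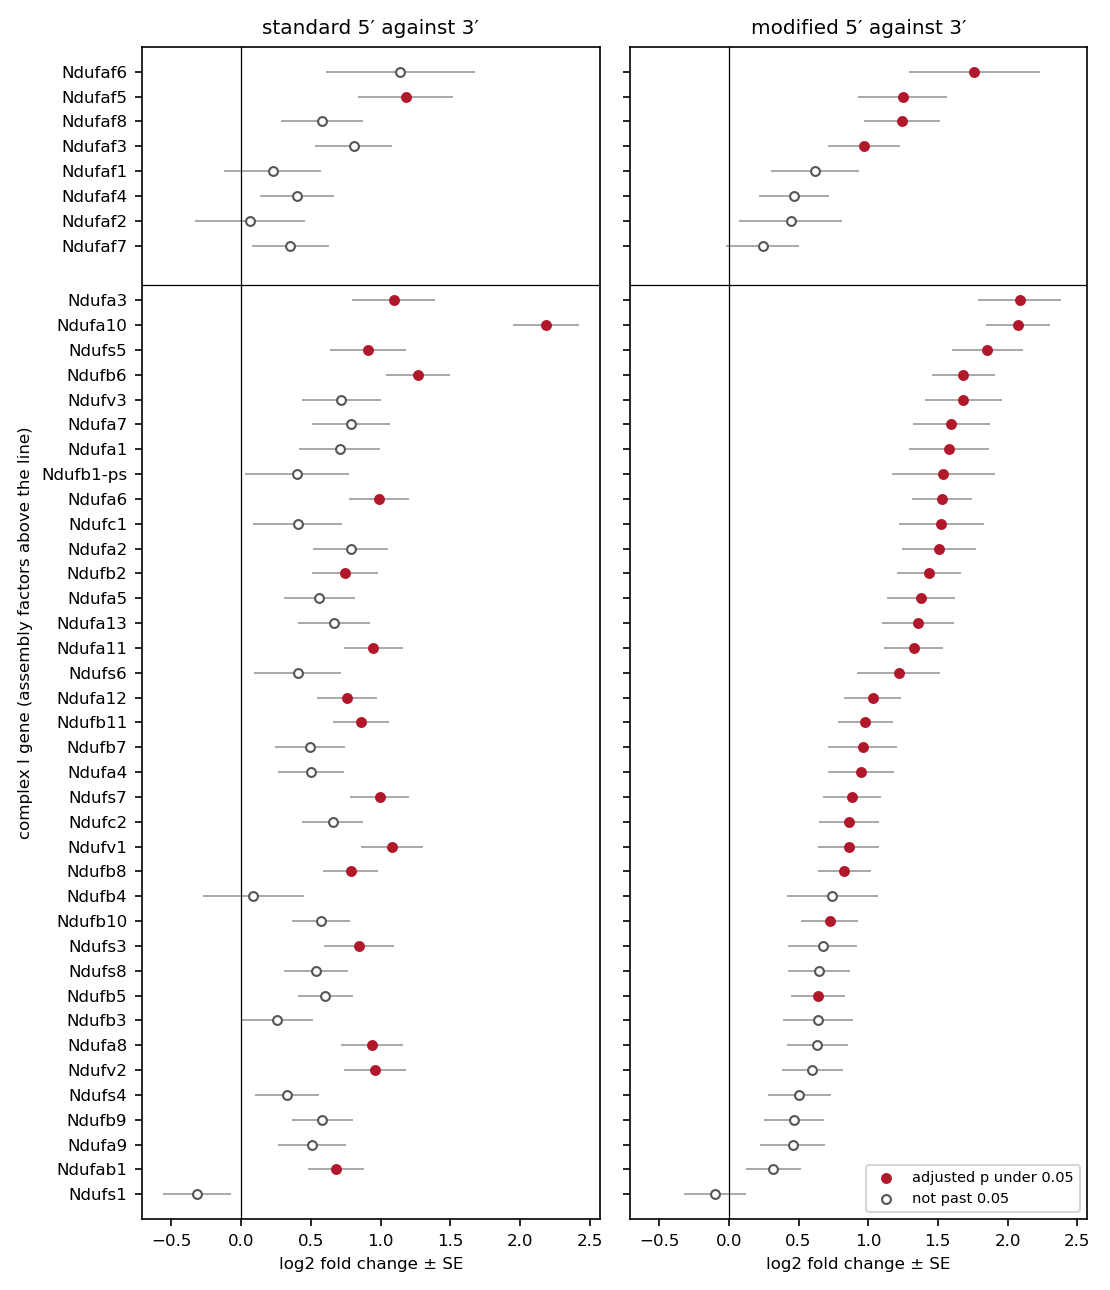
Log2 fold change ± SE of 45 of the tested genes, standard 5′ against 3′ (left) and modified 5′ against 3′ (right), from edgeR over all genes; filled red points have an adjusted p under 0.05. There are 17 filled points on the left and 30 on the right, all to the right of 0, led by Ndufa10 (2.19) and Ndufa3 (2.09).

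The assembly factors were low, so their errors were large. Ndufaf5, which hydroxylates Ndufs7, was the only one to pass in both comparisons. It was at 8.95 and 8.77 CPM in the 3′ libraries, 18.4 and 20.9 in the standard 5′ libraries and 22.1 and 20.3 in the modified 5′ libraries, differing by 1.18 ± 0.34 (edgeR adjusted p = 0.0348) and 1.25 ± 0.32 (edgeR adjusted p = 0.0267). Ndufaf8, which stabilises Ndufaf5, was at 44.3 and 32.7 CPM in the 3′ libraries, 46.1 and 62.7 in the standard 5′ libraries and 113 and 70.6 in the modified 5′ libraries, and rose in the modified libraries by 1.24 ± 0.27. Ndufaf3 and Ndufaf4 act together on the ubiquinone module. Ndufaf3 was at 27.8 and 39.8 CPM in the 3′ libraries, 43.0 and 68.3 in the standard 5′ libraries and 72.9 and 61.4 in the modified 5′ libraries and passed in the modified comparison, at 0.97 ± 0.26. Ndufaf4 was at 33.3 and 44.5 CPM in the 3′ libraries, 49.2 and 53.1 in the standard 5′ libraries and 43.3 and 63.5 in the modified 5′ libraries and did not pass, with 0.40 and 0.47. The partners thus differed in whether they passed, and the difference between them was not tested.

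Ndufaf6, a protein of the phytoene synthase family that acts early in assembly, was at 2.49 and 6.74 CPM in the 3′ libraries, 12.3 and 10.2 in the standard 5′ libraries and 15.7 and 17.3 in the modified 5′ libraries. It passed in the modified comparison at 1.76 ± 0.47 (edgeR adjusted p = 0.0314), on 4 to 34 counts per library. Ndufaf1, part of the membrane-arm assembly complex with Acad9 and Ecsit, was at 17.4 and 15.2 CPM in the 3′ libraries, 18.4 and 19.2 in the standard 5′ libraries and 30.4 and 20.3 in the modified 5′ libraries. Ndufaf2, a relative of Ndufa12 that acts late, was at 16.9 and 20.9 CPM in the 3′ libraries, 9.22 and 24.3 in the standard 5′ libraries and 31.4 and 21.3 in the modified 5′ libraries, with 65.7% of its exonic bases opposite those of B230220B15Rik. Ndufaf7, a mitochondrial methyltransferase, was at 25.9 and 25.6 CPM in the 3′ libraries, 24.6 and 36.7 in the standard 5′ libraries and 32.3 and 28.9 in the modified 5′ libraries. None of these 3 passed in either comparison, their log2 values running from 0.06 to 0.62. The 8 factors were all positive in both comparisons, with medians of 0.49 and 0.79 against 0.71 and 0.95 for the 38 subunits. Whether the strand of a read was used in counting is not given, so reads of opposite overlapping genes cannot be told apart. Besides Ndufs3 and Ndufs5, 31-base words shared with other genes made up 38.3% of Ndufb4, 29.3% of Ndufa12, 26.8% of Ndufs6, 25.5% of Ndufb9 and 20.4% of Ndufa11, so the counts of these genes are uncertain in the same way.

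The counts of called genes rested on few libraries. Without the standard 5′ replicate 2 library 1 gene was higher in the standard comparison, and without the 3′ replicate 1, 3′ replicate 2, modified 5′ replicate 1, modified 5′ replicate 2 and standard 5′ replicate 1 libraries 6, 14, 11, 13 and 16 were. In the modified comparison 5 were higher without the modified 5′ replicate 1 library, 18 without its replicate 2 and 20 without the 3′ replicate 1 library. With the replicate number as a block the counts were 34 for standard 5′ and 38 for modified 5′ against 3′. The shares of all genes called in the blocked and leave-one-out fits are not given here. These counts therefore cannot be set beside the shares of all genes in the main fits. Members called in all 6 of these leave-one-out fits of the modified comparison were Ndufa10, Ndufa3, Ndufa6, Ndufb6 and Ndufs5. Within replicate 1 alone 39 of 46 genes were positive for standard 5′ against 3′ and 45 for modified 5′ against 3′. Within replicate 2 alone the numbers were 45 and 45.

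The question of whether the protocol changes themselves altered the 5′ libraries was addressed by modified against standard 5′. No complex I gene passed, and none of all 11546 genes did, higher or lower (0% each), in edgeR or, among the complex I genes, in DESeq2. At an unadjusted p under 0.05 there were 14 complex I genes, all higher, and 459 genes in all. The median difference over the 46 genes was 0.32, with 35 positive, against -0.01 over all genes. The 14 were Ndufs5, Ndufc1, Ndufv3, Ndufa3, Ndufa5, Ndufb1-ps, Ndufa1, Ndufb2, Ndufa7, Ndufa2, Ndufa13, Ndufs6, Ndufa6 and Ndufaf8. None is a core subunit, and the median of the 7 core subunits was -0.16. The edgeR fit behind these values had no term for the replicate number, so it left out the pairing of same-numbered libraries. With that number as a block 0 complex I genes passed, and the share of all genes called there is not given here. The replicates differed: within replicate 1 the median over the 46 genes was 0.58, with 35 positive, and within replicate 2 it was 0.06, with 27 positive. Ndufc1, a small membrane subunit, was at 69.6 and 52.6 CPM in the 3′ libraries, 52.2 and 98.3 in the standard 5′ libraries and 213 and 139.6 in the modified 5′ libraries, so its difference was 2.01 within replicate 1 and 0.50 within replicate 2. Ndufb1-ps was at 96.0 and 104 CPM in the 3′ libraries, 70.7 and 177 in the standard 5′ libraries and 364 and 218 in the modified 5′ libraries, 2.35 within replicate 1 and 0.30 within replicate 2. The standard library of replicate 1 is the shallow one.

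Transcript length moved with these differences. The 46 genes are short: the median spliced length of the longest principal isoform in GENCODE was 977 bases, against 2873 for all tested genes with a length. For modified against standard 5′, Spearman's rho of the log2 difference with length was -0.45 across the 46 genes and 0.16 across 11412 genes. For modified 5′ against 3′ it was -0.40 and -0.40, and for standard 5′ against 3′ -0.11 and -0.43. These are descriptions across genes, which share the libraries and are not independent replicates. Taking each gene's median basic transcript as its length gave -0.56, -0.51 and -0.13 across the 46 genes.

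The shares were then set beside those of all tested genes in the same length band. Of complex I genes of 600 to 800 bases 27.3% were higher in standard 5′ than in 3′ libraries, and 28.6% of all tested genes of that length were. For 1200 to 2000 bases the shares were 27.3% and 28.1%, and for 800 to 1200 bases they were 50.0% (6 of 12) and 30.7%. Under 600 bases they were 42.9% (3 of 7) and 13.2%, and at 2000 bases or more 60.0% (3 of 5) and 6.13%. For modified 5′ against 3′, all 7 complex I genes under 600 bases were higher, against 26.7% of 273 tested genes of that length. The shares were 72.7% and 35.9% for 600 to 800 bases, 66.7% and 23.5% for 800 to 1200, 45.5% and 20.1% for 1200 to 2000 and 40.0% (2 of 5) and 4.84% for 2000 or more. Under 600 bases the median difference between modified and standard 5′ was 0.81 for the 7 complex I genes and 0.43 for all genes of that length. No test of these shares was made, and how far length accounts for the result was not tested.

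**Figure D4:**
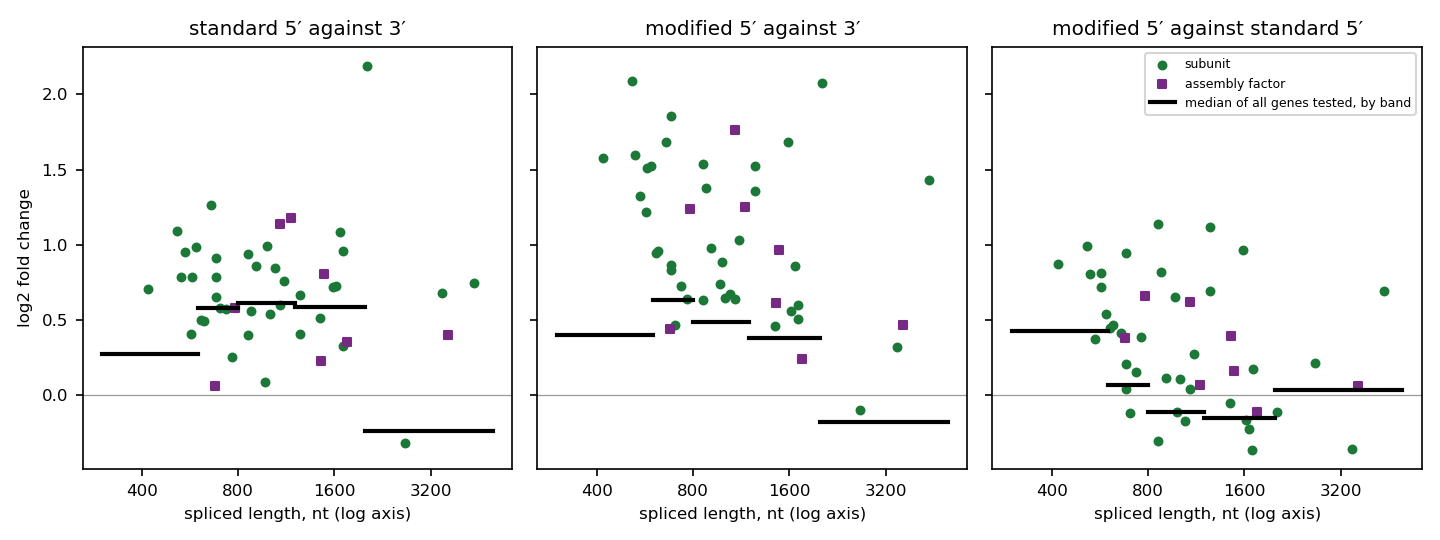
Log2 fold change of each complex I gene (circles subunits, squares assembly factors) against spliced transcript length in bases (log axis) for the 3 protocol comparisons; black bars are medians of all tested genes in the same length band. In the right panel all 7 complex I genes under 600 bases lie above 0, and in the left panel the bars from 600 to 2000 bases lie at 0.58 to 0.61, among the complex I points.

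In B-gated cells 16 of 45 tested genes were higher and 0 lower in standard 5′ than in 3′ libraries, where 13.9% of all 9284 tested genes were higher and 17.3% lower. In modified 5′ against 3′ the count was 31 higher and 0 lower, against 13.2% and 16% of all genes. No complex I gene was lower there at an unadjusted p under 0.05, and DESeq2 called 11 and 25 higher and 0 lower. The 6 largest changes in the standard comparison were those of Ndufa10 (1.83), Ndufb6 (1.32), Ndufa3 (1.13), Ndufv2 (1.04), Ndufa1 (0.97) and Ndufa6 (0.92). In the modified comparison they were Ndufa3 (1.91), Ndufa1 (1.86), Ndufa10 (1.80), Ndufb6 (1.80), Ndufs5 (1.74) and Ndufa7 (1.57). Ndufa10 in B-gated cells was at 36.7 and 32.7 CPM in the 3′ libraries, 96.1 and 133 in the standard 5′ libraries and 98.1 and 138 in the modified 5′ libraries. Ndufc1 was the only gene of the set to pass between modified and standard 5′, at 1.21 ± 0.28 (edgeR adjusted p = 0.028), where 0.151% of all genes were higher and 0.0431% lower. It was at 76.7 and 55.2 CPM in the 3′ libraries, 51.8 and 87.7 in the standard 5′ libraries and 229 and 144 in the modified 5′ libraries and did not pass with DESeq2 or with the replicate block, at a blocked adjusted p of 0.0811. Without the standard 5′ replicate 2 and 3′ replicate 1 libraries the standard comparison called 2 and 10 members in B-gated cells, and without the modified 5′ replicate 1 library the modified one called 20. Between modified and standard 5′ 6 were called without the modified 5′ replicate 2 library, and 0 without any one of the modified 5′ replicate 1 and standard 5′ libraries.

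In T-gated cells 15 of 45 genes were higher and 0 lower in standard 5′ than in 3′ libraries, against 11.7% and 11.3% of all 7800 genes. In modified 5′ against 3′ 25 were higher and 0 lower, against 10.3% and 9.13%. DESeq2 called 3 and 17 higher and 0 lower, and 1 gene, Ndufs1, was lower at an unadjusted p under 0.05 in the standard comparison, at -1.07 ± 0.42 (edgeR adjusted p = 0.0605). For modified against standard 5′, 11 genes of the set had an unadjusted p under 0.05, and the share of all genes at that threshold is not given here. At an edgeR adjusted p under 0.05, 0.0256% of all genes were higher and 0% lower. None of the set passed between modified and standard 5′ in edgeR, with or without the replicate block, or in DESeq2. Between them 3 were called without the modified 5′ replicate 2 library and 1 without either 3′ library. The 6 largest standard 5′ changes were those of Ndufa10 (2.29), Ndufv1 (1.26), Ndufb6 (1.22), Ndufaf3 (1.15), Ndufa3 (1.00) and Ndufs7 (0.99). In the modified libraries they were Ndufa10 (2.07), Ndufa3 (2.05), Ndufv3 (1.74), Ndufs5 (1.58), Ndufc1 (1.52) and Ndufa2 (1.50). Ndufa10 in T-gated cells was at 47.4 and 33.8 CPM in the 3′ libraries, 181 and 202 in the standard 5′ libraries and 171 and 166 in the modified 5′ libraries. Without the standard 5′ replicate 2, 3′ replicate 1 and 3′ replicate 2 libraries the standard comparison called 1, 8 and 9 members, and without the modified 5′ replicate 1 library the modified one called 11.

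The summed level of 8 B cell markers differed between protocols in all kept cells, at 15599 and 25656 CPM in the 3′, 29935 and 42038 in the standard 5′ and 31728 and 39012 in the modified 5′ libraries. Their part in the all-cell results was not tested. A test of whether the protocol effect differed between T-gated and B-gated cells called 0 of 46 complex I genes and 0.161% of all 9313 genes tested. At an unadjusted p under 0.05 there were 4 complex I genes, and the share of all genes at that threshold is not given here. The 4 were Ndufa1, Ndufb10, Ndufs1 and Ndufb3, with adjusted p from 0.742 to 1.

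T-gated and B-gated cells of the same library were then compared over all 6 libraries. Subunits took a larger share of counts in T-gated than in B-gated cells in every library, for example 0.549% against 0.474% in the 3′ replicate 1 library and 0.774% against 0.699% in the modified 5′ replicate 2 library. The assembly factor share was higher in T-gated cells in 4 of 6 libraries. After TMM scaling the median difference over 44 tested genes was 0.05, against -0.03 over all genes. It was 0.11 with upper-quartile factors, 0.08 with DESeq2 and with a gate of 3 counts, and 0.09 without the standard 5′ replicate 1 library. Of the 44 genes 7 were higher and 3 lower in T-gated cells, against 19.7% and 21.7% of all 7433 tested genes, so the set's share was below that of all genes in both directions. With upper-quartile factors 13 were higher and 2 lower, and with DESeq2 3 and 2. Without the library as a block 0 were higher, with 1 lower. Without the standard 5′ replicate 1 library 11 were higher and 2 lower.

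Ndufv3 was the clearest rise in T-gated cells. It ran from 60.8 to 215 CPM in the B-gated sums (mean 113 ± 60.5, SD, n = 6) and 91.4 to 386 CPM in the T-gated sums (mean 183 ± 111), and was above B-gated cells in 6 of 6 libraries, a log2 difference of 0.60 ± 0.10 (edgeR adjusted p = 4.75e-07). Ndufs4, an accessory subunit needed for the NADH-oxidising module to stay attached, ran from 121 to 179 CPM in the B-gated sums (mean 161 ± 21.4, SD, n = 6) and 155 to 252 CPM in the T-gated sums (mean 203 ± 37.5). It was higher in 5 of 6 libraries, by 0.38 ± 0.09 (edgeR adjusted p = 0.000151). Ndufa10 ran from 35.6 to 145 CPM in the B-gated sums (mean 93.3 ± 46.7, SD, n = 6) and 34.0 to 193 CPM in the T-gated sums (mean 129.5 ± 69.3) and differed by 0.36 ± 0.12 (edgeR adjusted p = 0.0114). The test compared the gates within libraries, so the ranges across protocols do not enter it. Ndufa8, a twin cysteine-motif subunit of the intermembrane space, was higher in 5 of 6 libraries, by 0.33 ± 0.09 (edgeR adjusted p = 0.0016). Ndufa13 (GRIM-19), which also takes part in cell death signalling, was higher in 6 of 6, by 0.30 ± 0.07 (edgeR adjusted p = 0.000336). By the annotation 30.0% of its exonic bases lie opposite those of Tssk6. Ndufa4 and Ndufa6 rose least, by 0.20 ± 0.07 (edgeR adjusted p = 0.0109) in 6 of 6 libraries and by 0.19 ± 0.07 (edgeR adjusted p = 0.0275) in 5 of 6. The calls of Ndufa6, Ndufa4 and Ndufa10 were lost in 6, 4 and 4 of 13 alternatives, and none of these 3 was called with every library left out in turn.

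Ndufs8 was the only core subunit to differ, and it was lower in T-gated cells. It ran from 134 to 245 CPM in the B-gated sums (mean 206 ± 41.5, SD, n = 6) and 82.5 to 151 CPM in the T-gated sums (mean 123 ± 26.7), lower in 6 of 6 libraries, a log2 difference of -0.65 ± 0.09 (edgeR adjusted p = 1.71e-08). It was called in all 13 alternative fits. Ndufb1-ps ran from 106 to 445 CPM in the B-gated sums (mean 216 ± 128, SD, n = 6) and 41.3 to 306 CPM in the T-gated sums (mean 133 ± 92.7) and was lower in 6 of 6, with -0.67 ± 0.09 (edgeR adjusted p = 4.59e-09). Ndufaf3 was lower in 5 of 6, with -0.40 ± 0.15 (edgeR adjusted p = 0.0305), and lost its call in 7 of 13 alternatives. The other 6 core subunits lay between -0.08 (Ndufs7) and 0.12 (Ndufs1) and did not pass, nor did Ndufab1 at 0.03. The other assembly factors tested ran from -0.22 (Ndufaf1) to 0.19 (Ndufaf4), and none passed. Erythroid markers summed to 427 to 9315 CPM in B-gated and 40.0 to 14546 CPM in T-gated cells, and 3 plasma cell genes to 839 to 3767 and 11.5 to 30.4 CPM. Markers of NK cells, 5 in all, summed to 4.65 to 41.9 CPM in B-gated and 597 to 1489 CPM in T-gated cells. Their part in these differences was not tested. Without immunoglobulin genes the counts were again 7 and 3.

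**Figure D5:**
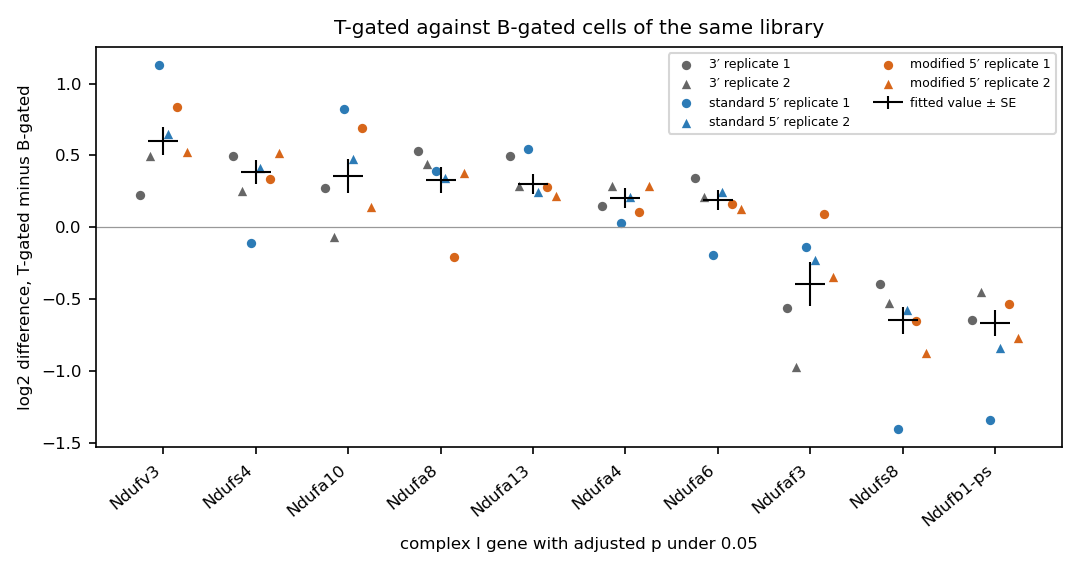
Log2 difference of T-gated minus B-gated cells in each library for the 10 complex I genes with an adjusted p under 0.05; black marks are the fitted value ± SE. Ndufv3, Ndufa13 and Ndufa4 lie above 0 in all 6 libraries, and Ndufs8 and Ndufb1-ps below 0 in all 6.

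The genes around the set behaved in several ways. Of the mitochondrially encoded complex I subunits 6 were tested in all cells. In standard 5′ against 3′ 0 of them were higher and 3 lower (mt-Nd1, mt-Nd4l and mt-Nd6). In modified 5′ against 3′ 0 were higher and 1 lower. The DESeq2 values of this list are not given here. mt-Nd1 was at 2505 and 2508 CPM in the 3′ libraries, 1333 and 1516 in the standard 5′ libraries and 1449 and 1716 in the modified 5′ libraries, a difference of -0.81 ± 0.20 and -0.66 ± 0.20. In B-gated cells 1 of 5 was higher in standard 5′ than in 3′ libraries, mt-Nd4 at 0.60 ± 0.22 (edgeR adjusted p = 0.0337), and 3 were lower. All 5 tested in T-gated against B-gated cells were lower, from -0.57 to -0.16. Of 9 tested complex I assembly factors of other names 2 were higher (Ecsit and Tmem70) and 1 lower (Acad9) in standard 5′, and 0 higher and 1 lower in modified 5′. Acad9, an acyl-CoA dehydrogenase relative that works with Ndufaf1, was at 160.1 and 142 CPM in the 3′ libraries, 64.5 and 57.0 in the standard 5′ libraries and 71.9 and 69.0 in the modified 5′ libraries, opposite in direction to the set. Of 9 tested complex III genes 3 were higher in standard 5′ (Cyc1, Uqcrc1 and Uqcrfs1) and 8 in modified 5′, with none lower and medians of 0.69 and 1.15. Of 4 complex II genes 2 and then 1 were higher, with medians of 0.73 and 0.70. Of 4 complex II assembly factors 2 and then 1 were higher, and Cycs, the electron carrier cytochrome c, passed in neither.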

How the data were processed

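Spleen cells of 6 single-cell libraries were measured by Nanopore long-read sequencing. The deposited values are unnormalised counts, 1 table of symbols by barcodes per library, and the authors' build was mm10, per the submitters' processing notes. Seurat is named there without a role. The aligner, gene annotation, use of strand, cell calling and molecule counting were not given in the sources used here. Intervals cover counting error at most. Molecule collapsing being unknown, they may be too narrow even for that.

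Barcodes passed if they had 200 detected genes or more and 20% mitochondrial counts or less. No doublet caller was run, and cells positive for both gates were left out of the gated sums. Counts were summed per library, with 723341 to 2627253 counts per library before filtering, and tested with edgeR 4.0.16 in R 4.3.3. The fit used TMM factors, the filterByExpr filter, the quasi-likelihood test and Benjamini-Hochberg adjustment over all genes at 0.05. All 6 libraries entered 1 fit, and T-gated against B-gated sums had the library as a block. Shares have exact Clopper-Pearson 95% intervals (scipy 1.17.1). The scripts were tested on simulated data. Lengths, shared words and overlaps come from the GENCODE M21 annotation, and promoters from RefSeq.

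Libraries of one replicate number share an extraction text. Their deviations from the group means correlated at 0.46, 0.39 and 0.24 across 11546 genes for the 3 pairs of groups. The main fits of the protocol comparisons had no term for the replicate number, so their p-values leave this pairing out. Fits with the number as a block were run as an alternative, and their counts are given with the other alternatives.

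Values per library are given for the core subunits, 1 of which is counted but not reported singly here, the assembly factors, Ndufab1 and Ndufa4. They are also given for the 6 largest called changes in each comparison, at 20 CPM or more and without overlap between groups. For the gated comparisons the log2 values of those 6 are given, with single genes per library. No T against B change met the overlap clause, so all 10 called genes are named there, chosen after their values were seen. Ndufc1 and Ndufb1-ps were named between the 5′ protocols in the same way. The members, marker lists and other gene lists were chosen with earlier results of these data known. Alternatives were DESeq2 1.42.0, upper-quartile factors, no low-count filter, at least 400 genes per cell, all barcodes, gates of 1 and 3 counts, the replicate block, no library block, no immunoglobulin genes, and each library left out. For the shares, a total without immunoglobulin, haemoglobin, ribosomal protein and mitochondrial genes and thinning to 300 counts were also used.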

Additional observations from a re-analysis of the deposited data

Results flagged for a closer look

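Differences between T-gated and B-gated cells were compared across the 6 libraries for all 44 members tested, and in 4 of them 1 library lay far from the other 5 by Dixon's criterion, which chance meets in about 1 in 20 groups. For Ndufa8 the T minus B log2 difference was -0.21 in the modified 5′ replicate 1 library and 0.34 to 0.53 in the others. The other 3 came from the standard 5′ replicate 1 library, the shallowest. For Ndufa12 the difference was 0.76 there and -0.15 to 0.10 in the others, on 15 counts in T-gated and 12 in B-gated cells. For Ndufb4 it was 2.30 there and 0.01 to 0.56 in the others, on 4 and 1 counts. For Ndufaf2 it was -3.10 there and -0.18 to 0.05 in the others. That value rests on 0 counts in T-gated and 1 count in B-gated cells and depends on the 1 CPM added before taking logs, so it gives no fold.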

How the results depend on the processing

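No called member changed sign under the alternatives run. The order of the summed shares did change over all barcodes, where 0.486% (standard 5′ replicate 1) lay below 0.487% (3′ replicate 2) for subunits and 0.0256% (modified 5′ replicate 1) below 0.0267% (standard 5′ replicate 2) for assembly factors. The shares were also taken over all barcodes, and with immunoglobulin, haemoglobin, ribosomal protein and mitochondrial genes left out of the total. Shares of cells with a count were taken again after thinning to 300 counts. Over all of these together, 27 values moved beyond the counting interval and 9 did not. Leaving genes out of the total raises a share and thinning lowers detection, so this count does not measure stability. The subunit share of the modified 5′ replicate 1 library went from 0.876% to 0.696% over all barcodes. Of the alternative counts of called members, 138 stayed within 1.5 times the reported count and 36 did not. Reported counts of 0 that stayed at 0 are among the 138, so that number does not measure stability either. In all kept cells, standard 5′ against 3′ called 18 members higher, 34 with the replicate block, 3 with at least 400 genes per cell, and 1 to 16 with a library left out. Modified 5′ against 3′ called 30, 18 with at least 400 genes, and 5 to 29 with a library left out. Modified against standard 5′ called 0, and 3 without the low-count filter. In B-gated cells the calls with a library left out were 2 to 24 (standard 5′ against 3′), 20 to 34 (modified 5′ against 3′) and 0 to 6 (modified against standard 5′). The 1 call of that last comparison became 0 with DESeq2, gates of 1 or 3 counts, or the replicate block. In T-gated cells they were 1 to 14, 11 to 25 and 0 to 3, and standard 5′ against 3′ called 3 with DESeq2, 9 with a gate of 3 counts and 5 without the low-count filter, against 15. T-gated against B-gated cells gave 7 higher, 3 with DESeq2, 11 with a gate of 3 counts, 0 without the library block, 13 with upper-quartile factors and 5 to 11 with a library left out. It gave 3 lower, 1 without the library block. Single called members kept their call in 1383 alternative fits and lost it in 379. The cause of these changes was not tested, apart from fewer samples or cells where these were left out. With the replicate block, standard 5′ against 3′ called 22 in B-gated and 19 in T-gated cells, and modified 5′ against 3′ called 38 in all, 32 in B-gated and 27 in T-gated cells, each within 1.5 times the count without it. The shares of all genes called under the alternatives are not given here. Low counts limit the assembly factors, which had as few as 3 counts in a library.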
